A study of Saccharomyces cerevisiae with 8 samples.

Results

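Cytochrome c oxidase is the last enzyme of the mitochondrial respiratory chain, and 9 nuclear genes for its subunits were followed here: COX4, COX5A, COX5B, COX6, COX7, COX8, COX9, COX12 and COX13. They were taken by gene symbol, each matched 1 probe set with no second set for the same gene, and all 9 passed the filter on dim genes. They are 9 of 5412 Saccharomyces cerevisiae genes tested. All 9 were lower in iron-poor than in iron-rich cultures, by 1.42-fold to 2.68-fold.

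The cultures were of the laboratory yeast strain DBY7286, shaken at 30 °C in defined minimal medium for about 18 h, to an A600 of 0.5. In 4 independent low-iron cultures 10 µM ferrous ammonium sulfate was supplied, and in 4 independent high-iron cultures 300 µM. All 8 cultures also held 1 mM Ferrozine, which binds ferrous iron, with 1 µM copper sulfate at pH 6.1, so iron was chelated in both conditions. Total RNA of each culture was hybridised to 1 Affymetrix yeast array, and the comparison asks how transcript levels differ when iron is scarce. The work rests on 1 strain and on RNA, so protein and enzyme activity were not measured.

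The enzyme passes electrons from cytochrome c to oxygen. Its catalytic core, made in the mitochondrion from COX1, COX2 and COX3, holds haem a and copper, while the nuclear subunits surround that core and hold no iron. The core genes and the later described subunit gene COX26 were not analysed here. Yeast makes subunit V in alternative forms: COX5A is the aerobic gene and COX5B the hypoxic one, and each enzyme carries either product. Transcription of many of these genes is known to depend on haem, through the Hap2/3/4/5 activator and, for COX5B, through the repressor Rox1.

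Array signals are in MAS5 units on a linear scale that was made equal between arrays, with a trimmed mean of 500.2 on each. Such scaling hides any change in total mRNA per cell. Background, read from Schizosaccharomyces pombe probe sets on the same arrays, was 5.4 to 8.06 units, and the brightest probe set read 6597 to 7706. The 9 genes read 463 to 2515, well inside these limits. With 4 arrays per condition, the number of arrays limits the precision. The array's ribosomal RNA controls, taken as the median of their probe sets, ran from 2567 to 3707 on low-iron arrays and from 3744 to 4321 on high-iron arrays, and their part in the results below was not tested. The 3′ over 5′ signal of the ACT1 control probe sets, a sign of RNA integrity, was 1.18 to 1.28 in low iron and 1.19 to 1.26 in high iron. The same ratio was higher for the SPT15 control, at 3.04 to 3.74 in low iron and 3.26 to 3.53 in high iron. For the SRB4 control it was 3.71 to 4.74 and 3.93 to 4.35. The conditions overlapped for each of these controls.

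Transcripts of all 9 subunit genes fell in low iron (limma, adjusted p under 0.05 over all genes tested), where 22.7% of all genes tested were called lower. The 4 low-iron values lay below the 4 high-iron values for each of the 9, against 21.8% of all genes. The median log2 change of the 9 was -0.85, beside -0.02 for all genes tested. Each of the 9 was lower by at least 0.5 on the log2 scale, as were 9.77% of all genes, and 3 of the 9 by at least 1, as were 2.83%. COX12 and COX8 lie close to these limits, and over the alternatives 8 to 9 of the 9 genes passed the first limit and 2 to 4 the second.

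**Figure D1:**
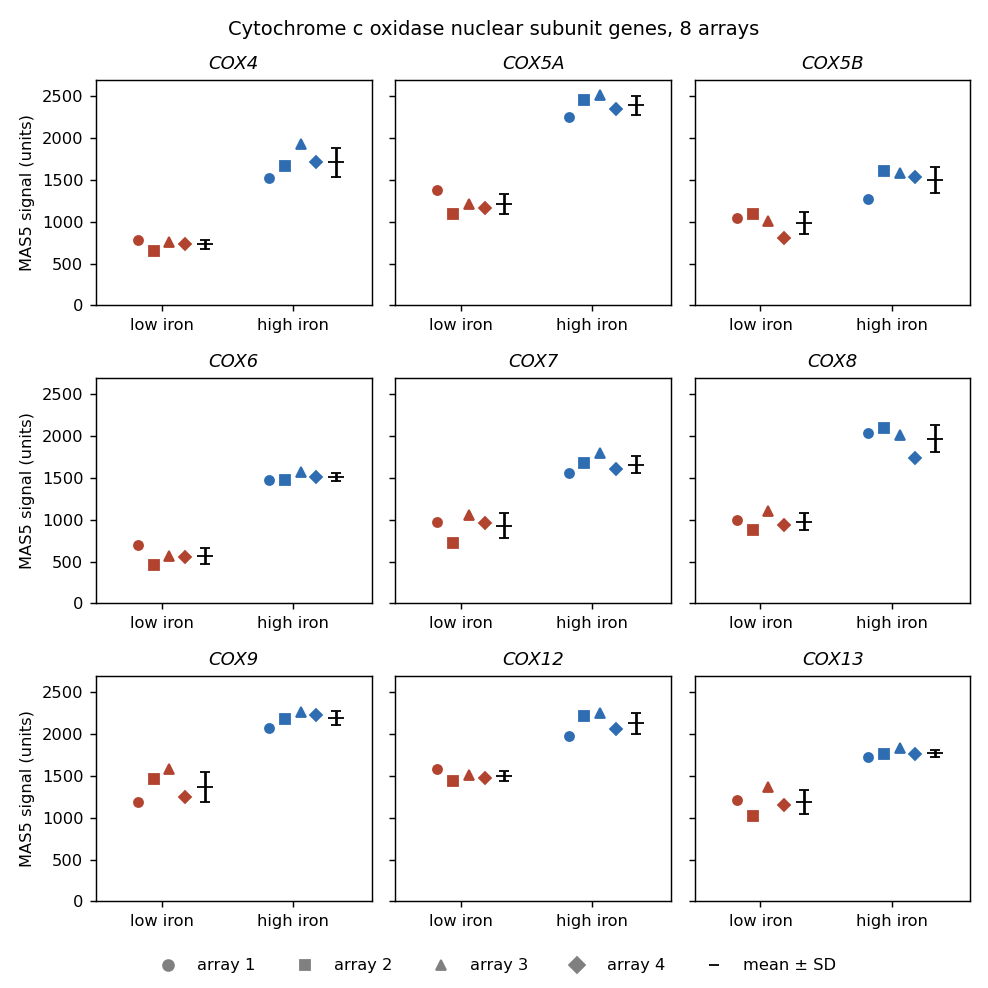
MAS5 signal (linear units from 0) of the 9 subunit genes on each of 4 low-iron arrays (red, left) and 4 high-iron arrays (blue, right), with mean ± SD beside the points. In every panel the red points lie below all blue points. Markers number the arrays within a condition and pair nothing between conditions, and heights are not comparable between genes because each has its own probes.

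Subunit V genes were both lower, by 1.98-fold for the aerobic and 1.52-fold for the hypoxic one. COX5A (YNL052W), whose product spans the membrane and is the usual aerobic form, read 1377, 1099, 1213 and 1164 in low iron, against 2259.9, 2461, 2515 and 2344 in high iron. The lowest high-iron array thus stood 883 units above the highest low-iron array. Its means were 1213 ± 118 and 2395 ± 115 (SD, n = 4 each), so that the level changed by -0.98 ± 0.0716 on the log2 scale (SE; adjusted p = 3.96e-06, limma).

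COX5B (YIL111W), the hypoxic form of the same subunit, read 1047, 1097, 1016 and 803 in low iron and 1273, 1607, 1583 and 1538 in high iron. Low-iron array 4 and high-iron array 1 were each the lowest of their condition, and the gap between conditions was 176 units. The means were 991 ± 129.8 in low iron and 1500.2 ± 154 in high iron (SD, n = 4), a difference of -0.60 ± 0.107 on the log2 scale (SE; adjusted p = 0.00147, limma). The hypoxic gene was thus not higher when iron was scarce.

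COX6 and COX4, which encode subunits on the matrix side of the enzyme, had the most negative changes of the 9. Grouping by side was not tested, and COX4 fell by 0.21 ± 0.109 (SE) more than COX8 on the log2 scale, with overlap between conditions. COX6 (YHR051W), encoding subunit VI, read 695, 463, 567 and 553 in low iron and 1480.0, 1473, 1571 and 1516 in high iron. High-iron arrays were tight, with a coefficient of variation of 2.96%, whereas low-iron arrays spread by 16.8%, array 1 being the highest and array 2 the lowest. The change was -1.42 ± 0.104 on the log2 scale (SE; adjusted p = 4.13e-06, limma), so that low-iron signal stood at 37.7% of that in high iron.

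COX4 (YGL187C), the zinc-binding subunit IV, read 782, 654, 759 and 732 in low iron, against 1526, 1670.4, 1937 and 1718 in high iron. The conditions lay 744 units apart at their nearest. The mean was 732 ± 55.4 in low iron and 1713 ± 170.4 in high iron (SD, n = 4), a 2.34-fold lower level (limma adjusted p = 2.13e-06).

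COX8, COX7 and COX9, which encode small membrane subunits, fell by intermediate amounts. COX8 (YLR395C), encoding subunit VIII, read 994, 874, 1108 and 937 in low iron and 2035, 2101, 2009.8 and 1741 in high iron. Its low-iron mean was 49.6% of the high-iron mean, with a log2 change of -1.01 ± 0.0836 (SE; adjusted p = 1.06e-05, limma). On high-iron array 4 it was below the other high-iron arrays, yet 633 units above the highest low-iron one.

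COX7 (YMR256C), encoding subunit VII, read 976, 726, 1062 and 963 in low iron and 1555, 1681, 1797 and 1611 in high iron. Low-iron array 2 was the lowest of all, and the conditions did not overlap. The log2 change was -0.85 ± 0.107 (SE; adjusted p = 1.79e-04, limma). COX9 (YDL067C), encoding subunit VIIa, read 1193, 1463, 1581 and 1245 in low iron, against 2075, 2187, 2268 and 2226 in high iron. Here low-iron arrays 1 and 4 were the low ones, unlike in COX7. The log2 change was -0.68 ± 0.0865 (SE; adjusted p = 1.79e-04, limma).

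COX12 and COX13 also fell. COX12 (YLR038C), encoding subunit VIb on the intermembrane-space side, read 1578, 1439.9, 1506 and 1473 in low iron and 1982, 2218, 2253 and 2061 in high iron. It had a tight low-iron spread of 3.93% and a log2 change of -0.50 ± 0.0565 (SE; adjusted p = 7.89e-05, limma). COX13 (YGL191W), encoding subunit VIa, read 1218, 1023, 1371 and 1151 in low iron, against 1721, 1768, 1832 and 1763 in high iron. The gap between conditions was 351 units, and the log2 change was -0.58 ± 0.0806 (SE; adjusted p = 3.29e-04, limma).

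Among all genes tested, 1.15% fell at least as much as COX6, 1.68% as COX4, 2.9% as COX5A and 9.68% as COX12. Whether the subunits fell by different amounts was tested within arrays, from the log2 difference between 2 genes in low against high iron, over all 36 pairs. COX6 fell by 0.92 ± 0.1 more than COX12 and by 0.84 ± 0.0982 more than COX13 on the log2 scale (SE). In 20 of 36 pairs the exact permutation test gave p = 0.0286, the smallest that 4 against 4 arrays allow, but none of 36 passed after Benjamini-Hochberg adjustment (adjusted p = 0.0514 for these 20). With 20 pairs at that smallest p the adjusted value cannot be lower, so a larger difference could not have passed either. COX8 and COX5A differed in change by 0.03 ± 0.0921 (adjusted p = 0.793, exact permutation test), and COX5B and COX13 by 0.02 ± 0.153 (adjusted p = 0.8). At these standard errors, unequal changes of such pairs are not excluded.

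The low-iron cultures were not alike in these genes. Low-iron array 2 gave the lowest low-iron value for 7 of 9 genes, the exceptions being COX9, lowest on array 1, and COX5B, lowest on array 4. On array 2 the median of the 9 lay 0.16 below the low-iron mean on the log2 scale, and COX5B was instead at its highest there. Array 3 was above the low-iron mean for all 9 genes, by 0.0044 or more. Against the high-iron mean, COX6 ranged from -1.12 on array 1 to -1.70 on array 2, and COX12 only from -0.43 on array 1 to -0.56 on array 2. In high iron, array 1 was the lowest for 7 genes and array 3 the highest for 7.

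**Figure D2:**
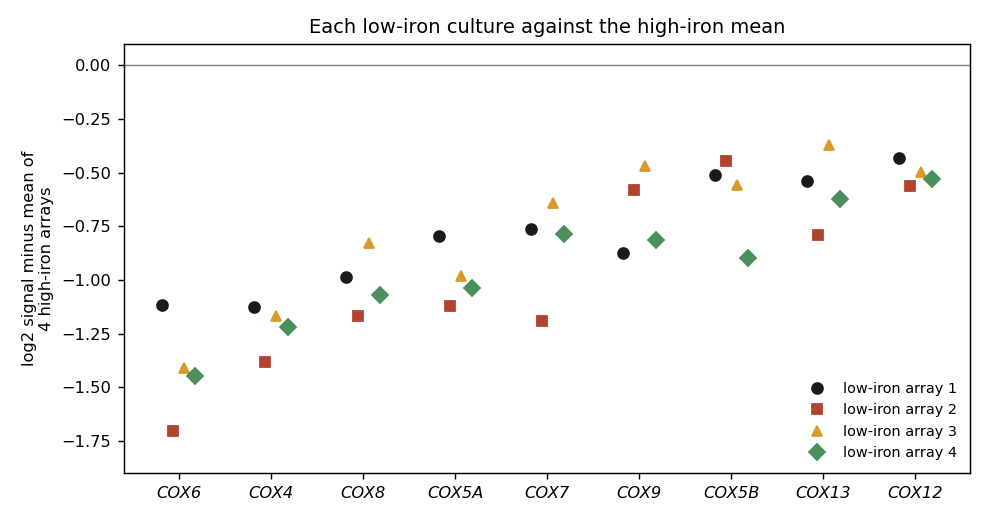
Log2(signal + 1) of each low-iron array minus the mean of the 4 high-iron arrays for the 9 genes, ordered by their change, with 1 marker per low-iron array. All 36 points lie below 0, from -1.70 (COX6, array 2) to -0.37 (COX13, array 3), and array 2 is the lowest for 7 genes but the highest for COX5B.

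Without both low-iron arrays 1 and 2, all 9 genes were still called lower, with a median log2 change of -0.73. The ribosomal RNA controls read 2682 and 2567 on those arrays and 3371 and 3707 on low-iron arrays 3 and 4, which still lie below every high-iron array, so leaving arrays out does not test their part.

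The aerobic and hypoxic forms of subunit V were next compared within each array. COX5B minus COX5A on the log2 scale was -0.39, -0.0022, -0.26 and -0.54 in low iron and -0.83, -0.61, -0.67 and -0.61 in high iron. All 4 low-iron values were the higher ones, although low-iron array 4 lay close to the high-iron arrays. The balance shifted towards COX5B by 0.38 ± 0.125 (SE) on the log2 scale in low iron (two-sided exact permutation test, p = 0.0286, adjusted p = 0.0476 over 5 such gene pairs). That p is the smallest possible here. A pair at it passes over 5 pairs only when others reach it too, as CYC7 minus CYC1 and HMG2 minus HMG1 did below. The shift arose with both genes lower, and the sign of each difference has no meaning of its own, since the probes differ. COX12 and COX13, which are not hypoxic forms, also fell less than COX5A, by 0.48 ± 0.042 and 0.40 ± 0.0788 (SE). COX7 and COX9 did too, with overlap between conditions, whereas COX4 and COX6 fell more. COX8 hardly differed from COX5A in change (0.03 ± 0.0921, SE, with overlap). COX5B fell by 0.02 ± 0.153 more than COX13, so such a shift was not particular to the hypoxic form.

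The call on the COX5B shift did not pass in the family of 36 subunit pairs (exact permutation test, adjusted p = 0.0514), where no pair could pass. It was also lost when any 1 high-iron array was left out (adjusted p = 0.0952 each time, exact permutation tests). Without low-iron arrays 1 and 2 it did not pass (difference of 0.28, adjusted p = 0.111), but 2 against 4 arrays cannot give p under 0.0667. Nor did it pass with the arrays' description numbers as a block (0.36, adjusted p = 0.167, exact permutation test within blocks).

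**Figure D3:**
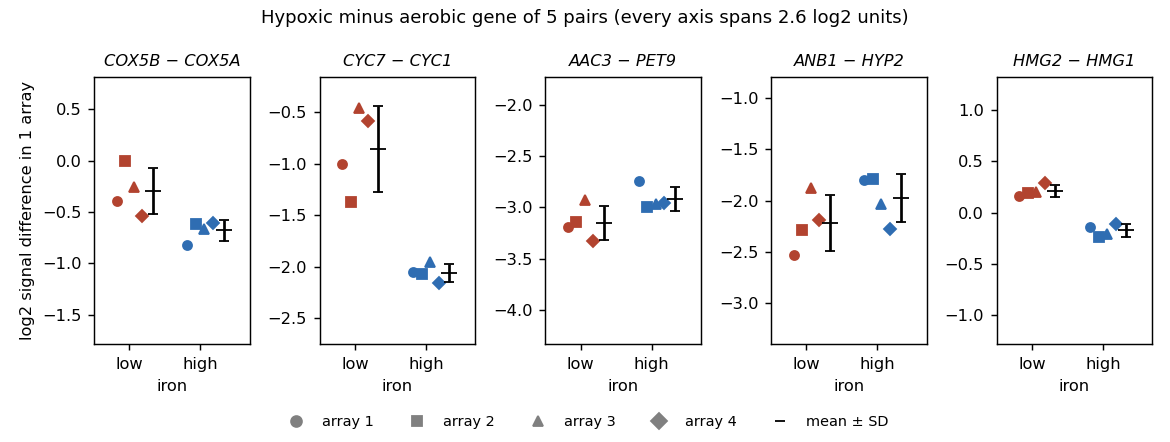
Log2(signal + 1) of the hypoxic gene minus that of its aerobic partner within each array for 5 gene pairs, in 4 low-iron arrays (red, left) and 4 high-iron arrays (blue, right) with mean ± SD. Red points lie above blue points for COX5B − COX5A, CYC7 − CYC1 and HMG2 − HMG1, and overlap them for AAC3 − PET9 and ANB1 − HYP2.

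Of the other aerobic and hypoxic pairs, 2 shifted towards the hypoxic gene. The smallest possible p, which they reached, was also reached by 20 of the 36 subunit pairs (exact permutation tests). Its share over all gene pairs was not determined. For cytochrome c, CYC7 minus CYC1 lay between -1.37 and -0.45 in low iron and between -2.16 and -1.95 in high iron, a shift of 1.21 ± 0.213 (adjusted p = 0.0476, exact permutation test). As in subunit V, both genes were lower in low iron. The shift of HMG2 over HMG1, which encode HMG-CoA reductases of sterol synthesis, was 0.38 ± 0.0421 (adjusted p = 0.0476, exact permutation test), and here both were called higher, HMG1 only by 0.19 and with its call lost in 7 of 19 alternatives. Both shifts also lost their calls without any 1 high-iron array (adjusted p = 0.0714 to 0.0952, exact permutation tests), without low-iron arrays 1 and 2 (adjusted p = 0.111) and with the block (adjusted p = 0.0833).

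The 2 remaining pairs overlapped between conditions. AAC3 against PET9, ADP/ATP carriers of the inner membrane, differed by -0.23 ± 0.102 and ANB1 against HYP2, forms of translation factor eIF5A, by -0.25 ± 0.179 (exact permutation tests, adjusted p = 0.143 and 0.229). Without low-iron array 3, AAC3 minus PET9 passed, as a shift away from the hypoxic gene (-0.31, adjusted p = 0.0357, exact permutation test). PET9 averaged 5250.5 in low iron and 4899 in high iron and HYP2 4477 and 4557, near the top of the range, so their changes can be compressed. HYP2 passed as lower under quantile normalization (-0.10, adjusted p = 0.0499). Of the hypoxic genes COX5B, CYC7, AAC3, ANB1 and HMG2, HMG2 was called higher, COX5B and CYC7 lower, and AAC3 and ANB1 did not pass.

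Of 10 genes for regulators of these promoters, 2 were called higher and 2 lower in low iron and 6 did not pass. These shares are near those of all genes, of which 16.8% were called higher and 22.7% lower, and the number lower was 1 to 3 over the alternatives. HAP4, the activating subunit of the Hap2/3/4/5 complex, read 246, 524, 835 and 794 in low iron, against 1001, 1163, 1006 and 1095 in high iron. Low-iron arrays 1 and 2 were the low ones, and the conditions did not overlap. The log2 change was -0.97 ± 0.318 (SE; adjusted p = 0.033, limma). It came to -0.60 without low-iron array 1 and -0.39 without both arrays, and the call was lost without low-iron array 2 or any 1 of the 4 high-iron arrays (adjusted p up to 0.0812).

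HAP2, a DNA-binding subunit of the complex, read 334, 322, 296 and 276 in low iron and 377, 370.0, 373 and 399.7 in high iron (limma adjusted p = 0.00759). Its conditions did not overlap, but the change was small at -0.31. HAP3 and HAP5, the other DNA-binding subunits, had log2 changes of -0.04 and -0.07 and did not pass (adjusted p = 0.735 and 0.601).

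ROX1, the haem-dependent repressor of hypoxic genes, read 938, 1080.0, 1002 and 909 in low iron and 631, 685, 662 and 605 in high iron. It rose by 0.60 ± 0.07 on the log2 scale (SE; adjusted p = 1.01e-04, limma). HAP1, a haem-responsive activator, read 1644, 1767, 1406 and 1337 in low iron, against 824, 799.9, 827 and 821 in high iron. It rose by 0.90 (limma adjusted p = 2.59e-05), with no overlap.

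The repressor genes MOT3 and IXR1 and the co-repressor genes TUP1 and CYC8 had log2 changes of -0.20, -0.04, 0.12 and -0.01. None of these 4 passed (limma adjusted p = 0.118, 0.713, 0.114 and 0.925), and MOT3 passed without low-iron array 1 (-0.29, adjusted p = 0.0142).

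**Figure D4:**
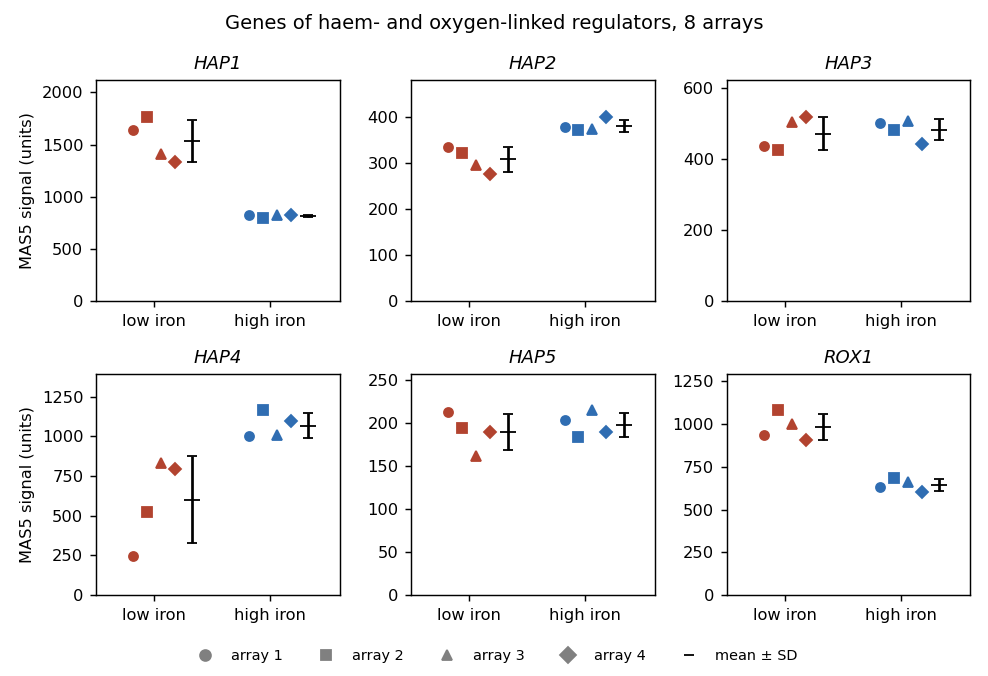
MAS5 signal (linear units, each axis from 0 with its own scale) of 6 regulator genes on 4 low-iron arrays (red, left) and 4 high-iron arrays (blue, right), with mean ± SD. HAP1 and ROX1 lie higher and HAP2 and HAP4 lower in low iron, with HAP4 at 246 on low-iron array 1, while HAP3 and HAP5 overlap.

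All 9 nuclear genes of the cytochrome bc1 complex, which passes electrons to cytochrome c, were called lower in low iron, where 22.7% of all genes were, with a median log2 change of -1.35. RIP1, the Rieske iron-sulphur subunit, averaged 221 ± 81.7 in low iron and 1247 ± 93.3 in high iron (SD, n = 4; limma adjusted p = 8.64e-06). The iron-free subunit genes QCR8 and COR1 each changed by -1.35, a size close to that of COX6.

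The 4 succinate dehydrogenase genes fell, with a median of -2.23, and the cytochrome c genes CYC1 and CYC7 were lower too, at -3.88 and -2.67. CYC7 is dim in low iron, at 14.9 to 44.7 units, and its change was -1.49 on the log2(signal + 64) scale. The ATP synthase, which uses the proton gradient of the chain but carries no electrons, had 8 of 14 genes called lower and none higher, with a median of -0.20. Of all genes 22.7% were called lower and 16.8% higher, and over the alternatives 6 to 11 of the 14 were lower and 0 to 1 higher. Its lowest adjusted p-values were those of ATP20 (-0.63), TIM11 (-0.49) and ATP16 (-0.52). Differences between complexes were not tested, and the medians stand as descriptions.

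**Figure D5:**
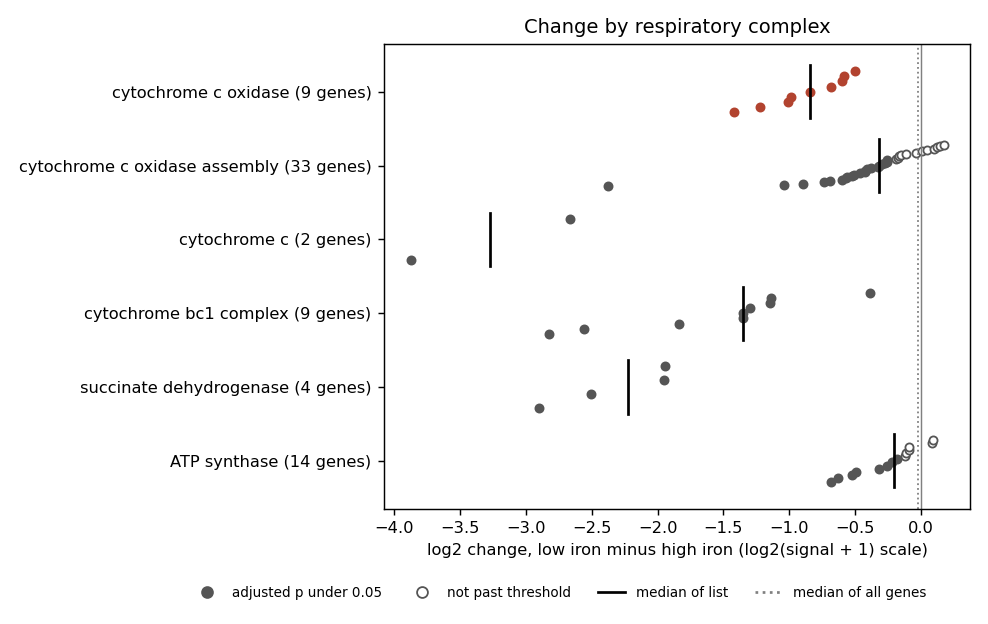
Log2 change, low iron minus high iron, of each tested gene in 6 lists, with cytochrome c oxidase in red. Filled points passed an adjusted p of 0.05 and open ones did not, and black bars are list medians (-0.85 for cytochrome c oxidase, -0.32 for its assembly genes, -1.35 for the bc1 complex and -0.20 for ATP synthase).

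Of 33 assembly genes, which serve in haem a synthesis, copper delivery, translation of the core subunits and their joining, 21 were lower in low iron, none was higher and 12 did not pass, where 22.7% of all genes were lower. Over the alternatives 17 to 23 were lower and 0 to 2 higher. The higher ones came with median centring (COX20), without low-iron array 1 (COX19) and without low-iron arrays 1 and 2 (COX19 and COA6). Their median log2 change was -0.32. COA2, an assembly factor, averaged 57.6 ± 19.2 in low iron and 289 ± 30.2 in high iron (SD, n = 4), a change of -2.37, or -1.55 with 64 in place of 1 added to the signal (limma adjusted p = 3.96e-05 on the main scale).

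PET100, a chaperone for a late assembly step, changed by -1.04 and COX17, the copper chaperone, by -0.73 (limma adjusted p = 5.43e-05 and 1.19e-04). Of the haem a synthesis genes, COX10 fell by 0.56 and COX15 by 0.90. The membrane insertase gene OXA1 was at 0.10 and SHY1, a gene for core assembly, at -0.15, and neither passed (adjusted p = 0.204 and 0.128).

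The genes with the most similar profiles over the 8 arrays were found by root mean square distance between centred log2 values. Nearest to the mean of the 8 subunit genes other than COX5B were PIR3 (a cell wall protein), YMR084W, CBP3 (an assembly factor of the bc1 complex), POA1 and ODC1 (a mitochondrial oxodicarboxylate carrier), at distances of 0.0545 to 0.085. Among the subunits themselves, COX5A stood nearest to that mean at 0.0681 and COX6 the farthest of the 8 at 0.276. Each of the 8 is part of that mean, so these distances cannot be set against those of the other genes. YMR084W, at 34.1 to 42 units in low iron and 64.6 to 73.9 in high iron, is dim, and its change of -0.89 was -0.40 with 64 added in place of 1.

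Nearest to COX5B were YOR186W, YKU70 (a DNA end-binding protein), PAU7, MNN1 (a mannosyltransferase) and PRP38 (a splicing factor), at 0.0692 to 0.0996. PAU7 was read by a probe set whose probes can bind similar sequences of its family. None of these 5 was a respiratory gene of the lists used here, which hold few of the genes tested. The same held for the 5 genes nearest to the mean of the other subunits, so this does not set COX5B apart. The nearest subunit gene to COX5B was COX12 at 0.144, and its partner COX5A stood at 0.245. YOR186W, at 27.1 to 39.2 units in low iron and 42.2 to 56.1 in high iron, did not pass under quantile normalization (adjusted p = 0.266). These distances are descriptions over 8 arrays from 2 conditions.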

How the data were processed

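The deposited values are MAS5 signal intensities, 1 per probe set and array, as the authors made them with MAS5 per the submitters' processing notes. The sources used here give none of its settings. Signal intensities on a linear scale had been scaled to equal trimmed means (2% off each end). Of 10928 probe sets, 5498 matched 1 S. cerevisiae gene (5449 genes) by the gene identifier of the platform table, named from RefSeq assembly R64. The brightest probe set of a gene was used. A gene was tested when its mean exceeded 5.48, the 95th percentile of 1746 S. pombe probe sets. Replicate numbers follow accession order and pair nothing.

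From the deposited intensities log2(signal + 1) was computed, and low minus high iron was tested with limma 3.58.1 (R 4.3.3; intensity trend, Benjamini-Hochberg over 5412 genes, threshold 0.05). Within-array gene differences were tested by two-sided exact permutation over 70 splits. In simulated data with the same 5412 genes, 72% of changes of 0.5, 98% of 1 and 100% of 2 or 4 on the log2 scale were recovered, and 13 of 5212 unchanged genes were called. Fold changes on this scale understate those of dim genes.

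The members and lists were chosen with earlier results of these data known. Genes named besides the 9 follow a rule: all regulators and isoform pairs, 3 per other list with the lowest adjusted p, and 5 nearest profiles. COA6, COX10, COX15, COX19, COX20, OXA1 and SHY1, and the test over 36 subunit pairs, were chosen after values were seen. Alternatives changed the pseudocount (16, 64), scaling, filter, prior, array weights, probe set rule, arrays and a block of description numbers. Figures used matplotlib 3.10.9 in Python 3.11.15.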

Additional observations from a re-analysis of the deposited data

Results flagged for a closer look

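In sets of 4 arrays of 1 condition, a value was marked when its gap to the nearest other value, as a share of the whole range, passed Dixon's 95% limit, and 5 of 108 sets were marked, where chance marks about 1 in 20. None was a cytochrome c oxidase gene. QCR8 read 669 on low-iron array 2 and 929 to 978 on the other low-iron arrays. CYC7 read 259 on high-iron array 3, against 194 to 202 on the others. HYP2 read 4894 on low-iron array 1 and 4313 to 4367 on the others, close to the top of the range. POA1 read 280.4 on low-iron array 1, against 239.9 to 244 on the others. The log2 difference of AAC3 from PET9 was -2.74 on high-iron array 1 and -2.99 to -2.96 on the other high-iron arrays.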

How the results depend on the processing

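All 9 cytochrome c oxidase genes were called lower, and none higher, under each of 19 alternatives (171 fits of a gene, largest adjusted p = 0.00683, for COX5B). Their median log2 change ran from -0.91 to -0.73 over fits without 1 array, and was -0.73 with low-iron array 2 or both low-iron arrays 1 and 2 left out. COX5B minus COX5A kept its direction, at 0.28 to 0.46 over fits without 1 array. Its call was lost without any 1 of the 4 high-iron arrays, without low-iron arrays 1 and 2 (0.28) and with the description numbers as a block (0.36, adjusted p = 0.167, exact permutation test within blocks). CYC7 minus CYC1 and HMG2 minus HMG1 lost their calls in the same 6 alternatives. HMG2 minus HMG1 kept an unadjusted p of 0.0286 without each high-iron array (exact permutation tests), so those losses came from the adjustment over the pairs. Without low-iron arrays 1 and 2 and with the block, the CYC7 and HMG2 shifts both had the smallest p possible (0.0667 and 0.0333, exact permutation tests). Of the 40 other named genes, HAP4 lost its call in 5 alternatives (adjusted p up to 0.0812), HMG1 in 7 (up to 0.176) and YOR186W under quantile normalization (0.266). MOT3 and ANB1 gained a call in 2 alternatives each, and PET9 and HYP2 in 1 each. The pair AAC3 minus PET9 gained a call without low-iron array 3 (-0.31, adjusted p = 0.0357, exact permutation test). The median change of all genes was -0.02, and 0.0012 under quantile normalization. The calls over all genes were 907 higher and 1226 lower, and 1182 and 1092 under quantile normalization. No paired analysis was possible because replicate numbers were given in accession order, so no low-iron culture has a high-iron partner. The block is no pairing: it splits the description numbers into the first 3 (2 low-iron arrays, 1 high-iron array) and the last 5 (2 low-iron, 3 high-iron). Signal over background limited none of the 9 genes.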
